A study of Mus musculus with 16 samples.

Results

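The proteins of the small (40S) subunit of the cytosolic ribosome were followed through 3 kinds of RNA from mouse gastrocnemius, the large calf muscle. Members were the genes whose array name is Rps followed by a number (with or without a final a or x), or Rpsa, and each gene was represented by its probe with the highest mean signal. This gave 30 genes of the 34650 gene names on the array, and all 30 passed the filter on dim probes. Rps3a, which the array spells Rps3a1, and the subunit proteins with other names (Fau, Gnb2l1) fell outside the rule and are given separately. The mice were male C57BL6 littermates of 8 to 16 weeks, either wild-type (WT, Eif6+/+) or heterozygous for Eif6 (Het, Eif6+/-), with 3 mice per genotype. The genotype is given for the whole mouse, and no muscle-restricted driver is named. Total RNA of the whole muscle and RNA of the pooled gradient fractions with 2 or more ribosomes (polysomes) were hybridised for each of the 6 mice. RNA of the fraction with 1 ribosome (monosomes) was available for WT mice 1 and 2 and Het mice 1 and 3, so that 16 single-colour arrays were used.

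The small subunit binds mRNA, scans it for the start codon and reads the codons, while the large subunit joins the amino acids. Its proteins fold around the 18S rRNA into a head and a body, and most of them are needed for the subunit to mature. The mRNAs of ribosomal proteins belong to the TOP class, which starts with a C followed by an uninterrupted run of C and T (a 5′ terminal oligopyrimidine tract). TOP mRNAs are known to move between polysomes and lighter particles as growth signals through mTOR change. Eif6 binds the large subunit and keeps it from joining the small one too early.

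The start regions of 4 members are shown because this class of mRNA is defined there. Each window has 30 bases, 10 before and 20 from the start that RefSeq annotates (build GRCm38.p6), and the longest C/T run is in capitals. The members shown are Rps12, low on polysomes relative to whole muscle in both genotypes, Rps6 and Rps24, the highest in the genotype difference of loading, and Rps9, the only one above 0 in every mouse.
Rps12, minus strand, chr10:23787190-23787219: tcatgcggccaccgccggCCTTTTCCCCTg
Rps6, minus strand, chr4:86857348-86857377: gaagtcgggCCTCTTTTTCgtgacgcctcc
Rps24, plus strand, chr14:24490668-24490697: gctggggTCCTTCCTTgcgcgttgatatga
Rps9, plus strand, chr7:3704031-3704060: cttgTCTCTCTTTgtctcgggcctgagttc
The runs had 11, 10, 9 and 9 bases. Of the members, 22 of 30 had an entry in the RefSeq promoter table. A run of 8 or more C or T on the transcribed strand, between 20 bases before and 40 after the annotated start, was present in 14 of these 22 (63.6%), in 26 of 38 large-subunit genes (68.4%) and in 21.8% of 27025 genes with an entry. The run was as long in Rps9 as in Rps24, whose polysome ratios lay far apart, and it had 4 bases in Rps19, the member with the lowest WT ratio. Run length was not tested against the ratio. Annotated starts can lie some bases from the true ones, so a run marks a match of letters only.

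The probes were 60 bases long, and those that carry the contrasts below are shown whole, with positions on mouse build mm9 as the array files give them. Each of those shown has at least 1 reading frame without a stop codon, and whether they lie within the coding sequence was not checked. The Rps19 probe and the more 5′ Rps12 probe had some of the lowest polysome over whole muscle ratios, and the Rps9 probe had the highest.
Rps19, bases 167 to 226 of the transcript, chr7:25670166-25670225: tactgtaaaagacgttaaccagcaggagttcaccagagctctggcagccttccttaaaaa
Rps12, bases 321 to 380, across a splice junction, chr10:23505428-23505711: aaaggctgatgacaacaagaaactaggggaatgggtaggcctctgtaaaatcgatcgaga
Rps9, bases 490 to 549, chr7:3658287-3658346: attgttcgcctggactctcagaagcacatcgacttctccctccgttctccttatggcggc
For Rps2 and Rps18 the 2 outermost probes named for the gene are shown, because they gave different ratios.
Rps2, bases 354 to 413, chr17:24857583-24857642: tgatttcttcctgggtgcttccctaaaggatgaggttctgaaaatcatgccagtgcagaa
Rps2, bases 807 to 866, chr17:42864841-42864900: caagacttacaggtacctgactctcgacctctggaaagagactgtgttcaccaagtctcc
Rps18, bases 26 to 85, chr17:34092060-34092119: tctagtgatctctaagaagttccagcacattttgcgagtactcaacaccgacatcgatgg
Rps18, bases 367 to 426, across a splice junction, chr17:34089041-34089202: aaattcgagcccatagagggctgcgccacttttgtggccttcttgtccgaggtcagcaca
The array files place the second Rps2 probe far from the first on chromosome 17, and place the chosen probes of Rps27 and Rps29 on chromosomes 9 and 2, whereas RefSeq has these genes on 3 and 12. Ribosomal protein genes have many near-identical copies in the mouse genome, so the values of these probes may include RNA from a copy.

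Values are log2 intensities after quantile normalization, over 12 arrays for whole muscle and polysomes and over all 16 arrays wherever monosomes enter. They give the share of an mRNA within its RNA sample and not an amount per cell, and in a whole muscle fewer cells of a type cannot be told apart from less RNA per cell. Array brightness (75th percentile of the processed signal) ran from 12.7 to 150 scanner units, and in whole muscle it was lower on the 3 Het arrays (13.5 to 33.02) than on the 3 WT arrays (42.3 to 150). On 14 arrays the probe nearer the 5′ end of a transcript was dimmer than the one nearer the 3′ end, with medians of -1.35 to -0.79 over 1171 probe pairs, but WT polysome 2 (0.60) and WT monosome 2 (0.81) had the opposite balance. Both arrays came from WT mouse 2, and the main results that rest on them are therefore also given without that mouse. Eif6 checked the genotypes: its whole-muscle values, normalized over 16 arrays, were 9.66, 9.15 and 8.97 in WT and 8.39, 8.40 and 8.21 in Het, a difference of -0.92 (SE 0.25, adjusted p = 0.359) without overlap. All 8 skeletal muscle markers were well above background on every array.

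The first question was how the small-subunit mRNAs were distributed between polysomes and the whole muscle. For each mouse the log2 polysome value minus the log2 whole-muscle value was taken. The polysome array was on slide 1 and the whole-muscle array on slide 2 for WT mice 1 and 2 and Het mouse 1. It was the reverse for WT mouse 3 and Het mice 2 and 3. Each ratio therefore also compared 2 slides, and the directions were unequally split between the genotypes. In WT, 29 of 30 members had a mean ratio below 0, with a median of -0.74 over members, against 0.07 over 15604 tested genes. In Het, 29 of 30 were below 0 as well, with a median of -0.86 against 0.14. The median member thus had a lower polysome over whole muscle ratio than the median tested gene in both genotypes. In WT, 13 of 30 members passed an adjusted p of 0.05, all of them lower on polysomes, where 10.6% of the 19847 tested probes were called lower, and 17.6% of those at least as bright as the dimmest member. In Het, 13 of 30 passed, again all lower, against 4.03% of tested probes and 10.7% of the bright ones. By the study's threshold, an absolute log2 difference above 1 with an unadjusted p under 0.05, 11 members were lower in WT and 13 in Het, against 12.2% and 5.9% of tested probes.

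**Figure D1:**
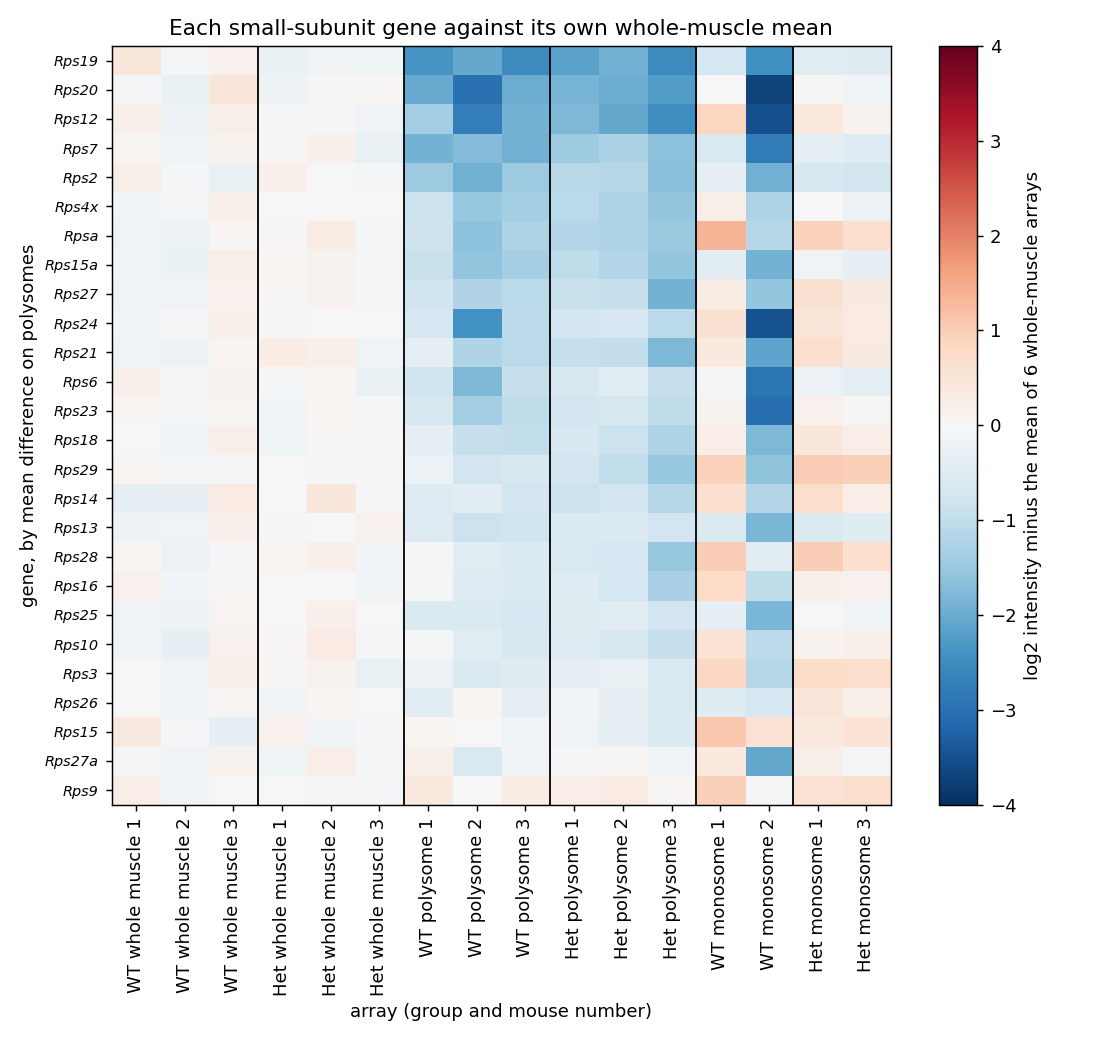
Heat map of 26 of the 30 genes (rows) on 16 arrays (columns, by group and mouse), coloured by the log2 intensity minus the gene's own mean over the 6 whole-muscle arrays. Whole-muscle columns are near 0, polysome columns are mostly blue, that is lower, and 3 of the 4 monosome columns lie near or above 0, while WT monosome 2 is lower for most genes.

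The direction was shared by the mice. The median over members was -0.38, -0.85 and -1.09 in WT mice 1 to 3 and -0.69, -0.88 and -1.16 in Het mice 1 to 3, while the median of all tested genes lay between 0.04 and 0.17. Of the 30 genes, 24 were below 0 in all 6 mice, 1 was above 0 in all 6 and 5 had mixed signs. Without WT mouse 2, the WT median was -0.67 and 10 members passed the adjusted threshold, all lower, where 8.07% of tested probes were. The count depended on single mice: it was 5 in WT without WT mouse 3 and 8 without Het mouse 3, and in Het no member passed when Het mouse 1, 2 or 3 or WT mouse 3 was left out, although 28 or 29 members were below 0 in each of these fits. With array brightness as a term, 6 members passed in WT and 0 in Het (4 in Het with slide as a term), and the medians were -0.84 and -0.70. Shares of all tested probes are given only for the fits with all mice and without WT mouse 2.

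**Figure D2:**
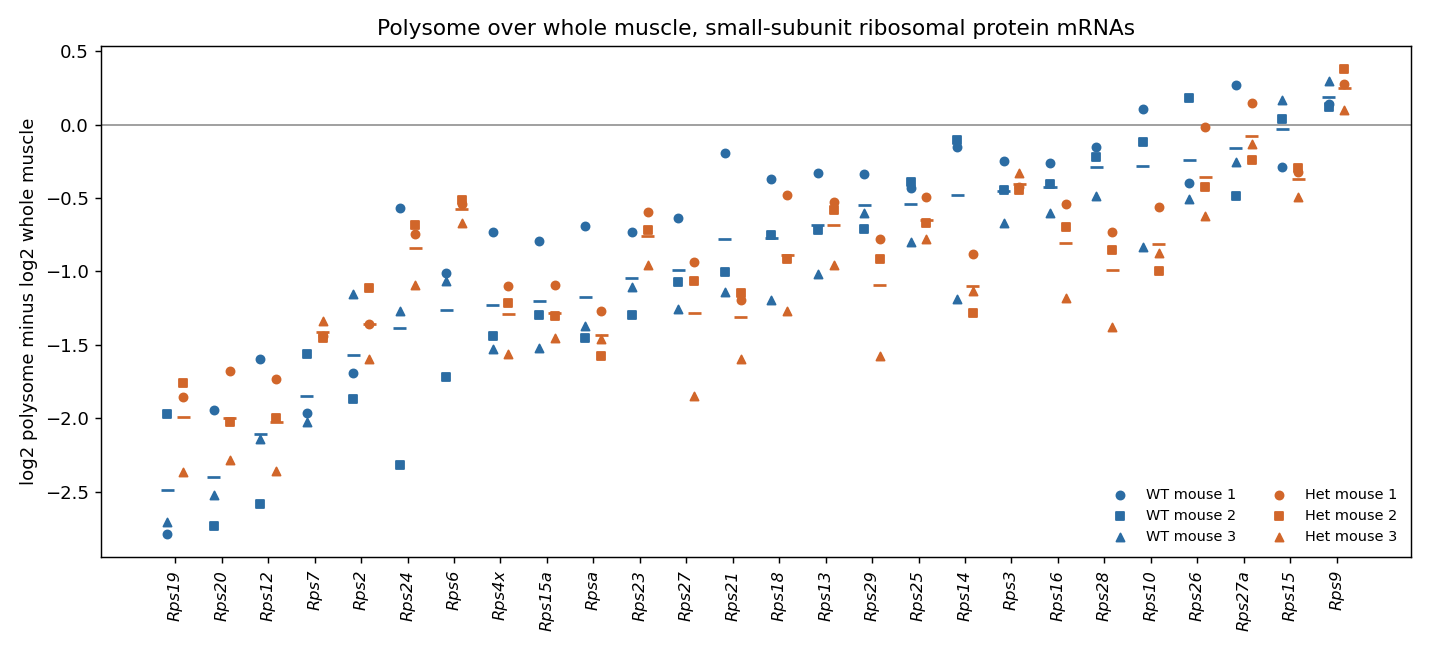
Log2 polysome minus log2 whole-muscle value (y axis) of 26 of the 30 genes (x axis, by WT mean) in 3 WT (blue) and 3 Het (orange) mice, with dashes for the genotype means. Rps19, Rps20 and Rps12 lie near -2 or lower in most mice of both genotypes, and Rps9 lies above 0 in every mouse.

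The 3 lowest members in WT were all proteins of the head. Rps19, needed to process the 18S rRNA precursor and often mutated in Diamond-Blackfan anaemia, had ratios of -2.79, -1.97 and -2.71 in WT and -1.85, -1.76 and -2.36 in Het. Its means were -2.49 ± 0.45 (SD, n = 3, adjusted p = 0.0041) and -1.99 ± 0.33 (SD, n = 3, adjusted p = 0.015). Every mouse was far below 0, and the genotypes overlapped. Rps20, which is ubiquitylated when ribosomes collide, gave -1.94, -2.73 and -2.52 in WT and -1.68, -2.02 and -2.28 in Het. Rps12, a protein of the beak of the head, gave -1.60, -2.58 and -2.14 in WT and -1.73, -1.996 and -2.36 in Het. Both were called in both genotypes (adjusted p = 0.0041 and 0.0053 in WT, 0.015 for each in Het), and their other tested probes gave WT ratios of -2.45 and -2.11. After these 3 came Rps7, a body protein, at -1.85 in WT and -1.41 in Het, and Rps2, which lines the mRNA entry channel, at -1.57 and -1.36.

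At the other end, Rps9, a protein of the body, had ratios of 0.14, 0.12 and 0.30 in WT and 0.28, 0.38 and 0.10 in Het. These values were small and positive, with means of 0.19 ± 0.10 and 0.25 ± 0.14 (SD, n = 3 each, adjusted p = 0.509 and 0.421), and the means became -0.17 and -0.30 when arrays were scaled by their 75th percentile instead. Rps15, whose tail reaches the decoding site, gave -0.29, 0.04 and 0.17 in WT and -0.32, -0.29 and -0.49 in Het. Rps27a, made as a fusion with ubiquitin and then cleaved, gave 0.27, -0.49 and -0.26 in WT and 0.15, -0.24 and -0.13 in Het. Neither of these was called in either genotype. All other members had lower WT means. In all, 10 members were called in both genotypes, 6 in 1 genotype and 14 in neither, and the share of all tested probes called in both is not given here. Among the 10 were Rps2, Rps4x, Rps7, Rps12, Rps15a, Rps19, Rps20, Rps27 and Rpsa. Rps23, of the decoding centre, Rps24 and Rps6 were called in WT (Rps23 at -1.04, adjusted p = 0.0205), and Rps21, Rps28 and Rps29 in Het (Rps21 at -1.31, adjusted p = 0.033). The WT ratio of Rps24 was -1.38 (adjusted p = 0.030) and fell short of the threshold without WT mouse 2, at -0.92 (adjusted p = 0.068), as did that of Rps27 (-0.99 with all mice and -0.95 without, adjusted p = 0.037 and 0.095). In WT 5 of the 13 calls, Rps2, Rps7, Rps12, Rps19 and Rps20, held in each fit that left out 1 mouse, and in Het 0 of 13 did. Among those called in neither, Rps26 of the mRNA exit channel (-0.24 in WT, -0.35 in Het), Rps10 (-0.28 and -0.81), Rps16 (-0.42 and -0.80) and Rps25, used by some viral entry sites (-0.54 and -0.65), had means below 0 in both genotypes, as did Rps13 (-0.69 in each) and Rps18 (-0.77 and -0.89).

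Members known for roles beyond structure lay between these ends. Rps6, the protein that S6 kinase phosphorylates downstream of mTOR, had WT ratios of -1.01, -1.72 and -1.07 and Het ratios of -0.54, -0.52 and -0.67, and was called in WT (mean -1.27, adjusted p = 0.015) but not in Het (mean -0.57, adjusted p = 0.145). Rpsa, also described as a laminin receptor, had -0.69, -1.45 and -1.37 in WT and -1.27, -1.58 and -1.46 in Het, and was called in both (adjusted p = 0.019 and 0.022). Rps3, part of the entry channel with a described role in DNA repair, had -0.25, -0.44 and -0.67 in WT and -0.43, -0.45 and -0.33 in Het, below 0 in every mouse but not called (adjusted p = 0.140 and 0.225). By place in the subunit, 4 of 14 head proteins and 9 of 16 body proteins were called in WT, where 10.6% of tested probes were called lower. In Het 6 of 14 and 7 of 16 were called, against 4.03% of tested probes. The medians were -0.50 (head) and -1.02 (body) in WT and -0.85 and -0.97 in Het. The difference between head and body was not tested.

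The order of members was alike in the genotypes, which share no array. Across the 30 genes the WT and Het mean ratios gave a Pearson r of 0.854 and a Spearman rho of 0.79, as a description over genes of 1 array design that share depth and normalization. Against the whole-muscle signal the mean ratio gave r = 0.012, and against the position of the probe in its transcript r = 0.019. Large-subunit proteins had medians of -0.57 in WT and -0.62 in Het, with 43 of 46 tested genes below 0 in each. Other TOP mRNAs had medians of -0.77 and -0.44 (13 tested), and the small-subunit proteins of mitochondrial ribosomes, which are no TOP mRNAs, 0.03 and 0.23 (29 tested). The differences between these lists were not tested. Marker lists moved with the fraction. The summed level of 4 fibroblast markers ran from 13.46 to 14.25 in whole muscle and from 14.40 to 15.12 on polysomes, and that of 6 adipocyte markers from 11.80 to 12.90 and from 13.06 to 14.45. The muscle list overlapped in WT (19.74 to 20.14 and 19.81 to 19.86) but lay slightly higher on polysomes in Het (19.74 to 19.93 and 19.93 to 19.98, without overlap), and the immune and endothelial lists overlapped in both. The blood list overlapped in Het but not in WT, where it ran from 13.32 to 13.97 in whole muscle and from 14.36 to 15.42 on polysomes. Their part in the ratios was not tested.

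Genes with several probes showed how far the ratio differed between probes of 1 gene. Of the 67 probes with a member's name 61 were tested, and 59 of these 61 were below 0 in WT and 59 in Het. In 20 genes 2 or more probes were tested. In 14 of them the outermost probes lay at least 100 bases apart, and the more 5′ probe had the lower ratio in 11 of 14 in WT and in 14 of 14 in Het, with median differences of -0.22 and -0.17. Without WT mouse 2, whose polysome array had the opposite 5′ to 3′ balance, it was lower in 12 of 14 in WT, with a median of -0.40. For Rps2 the probes shown above gave -3.04 at base 354 and -1.57 at base 807 in WT, and -1.99 and -1.36 in Het, but the second may read a copy of the gene and the gap is not shown to lie within 1 transcript. For Rps18 they gave -2.16 at base 26 and -0.77 at base 367 in WT, but -1.01 and -0.89 in Het. Rps15 gave -1.21 at base 87 and -0.03 at base 378 in WT, so its place near the top of the order held for its brightest probe only. The WT gaps without WT mouse 2 were -1.86 for Rps2, -1.71 for Rps18 and -1.41 for Rps15. In these genes the more 5′ probe was also the dimmer. Mean levels were 11.56 and 13.11 for Rps2, 9.13 and 11.14 for Rps18, and 10.60 and 13.15 for Rps15. Position and brightness could not be told apart here. For Rps2 and Rps18 both probes were below 0 and only the size differed, whereas for Rps15 in WT the brightest probe lay near 0 with mixed signs among the mice. The Rps3 probe at base 1795 lay at 0.02 in WT and 0.08 in Het, above 0 unlike its other probes, and at -0.05 in WT without WT mouse 2. In Rps3 the more 3′ probe was the dimmer, with a mean level of 8.51 against 11.23 for the chosen probe.

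**Figure D3:**
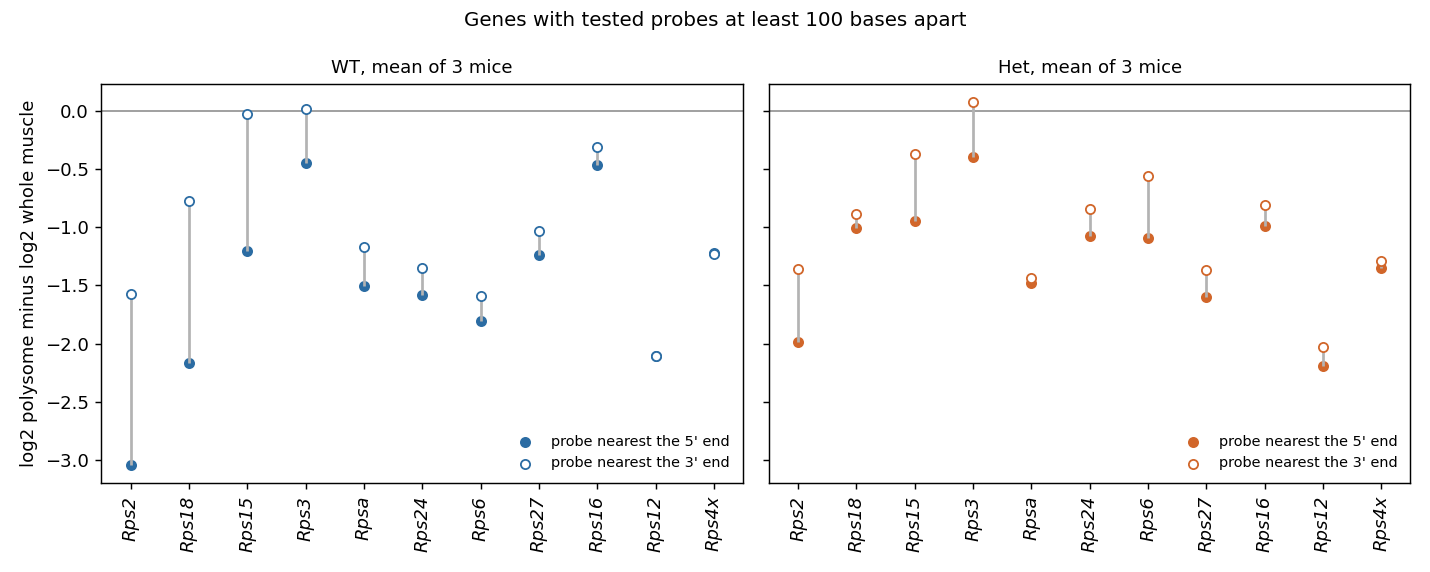
Mean log2 polysome minus log2 whole-muscle ratio (y axis) of the probe nearest the 5′ end (filled) and the probe nearest the 3′ end (open) for 11 of the 14 genes with tested probes at least 100 bases apart, in WT (left) and Het (right), n = 3 mice each. The filled point is lower in 10 of these 11 genes in WT and in all 11 in Het, and the widest gap in WT, -1.47, is that of Rps2.

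The next question was whether a lower dose of Eif6 changed these mRNAs. In whole muscle the Het minus WT difference had a median of 0.01 over members, with a range of -0.38 to 0.26, and 0 of 30 members passed the study's threshold (background 5.64% of tested probes) or an adjusted p of 0.05 (0.0101%). By limma, 0 had even an unadjusted p under 0.05, which 8.48% of tested probes had. The lowest was Rps19, with whole-muscle values of 11.43, 10.93 and 11.16 in WT and 10.72, 10.85 and 10.83 in Het. These did not overlap, and the difference was -0.38 (SE 0.23, adjusted p = 0.706, exact permutation p = 0.1, the smallest that 3 against 3 mice can give). It was the only member without overlap in whole muscle, where 13.6% of tested probes had none. Rps6 followed at -0.19, with 12.81, 12.52 and 12.73 in WT and 12.50, 12.66 and 12.34 in Het. The highest were Rps14, a platform protein whose loss is known from the 5q- syndrome, at 0.26 (14.45, 14.51 and 15.23 in WT, 14.84, 15.33 and 14.80 in Het) and Rps10, a protein of the beak that is ubiquitylated at collided ribosomes, at 0.21 (13.42, 13.27 and 13.77 in WT, 13.63, 13.94 and 13.54 in Het). Both pairs of groups overlapped. These differences moved with single mice, to -0.25 for Rps19 without WT mouse 1, -0.11 for Rps6 without Het mouse 3, 0.085 without Het mouse 2 and 0.51 without WT mouse 3 for Rps14, and 0.096 and 0.36 in these fits for Rps10.

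On polysomes the differences were wider. The median was -0.05, with 12 members higher and 18 lower in Het (8 lower without Het mouse 3 or within slide 1, the first of the 2 slides of 8 arrays, and 11 without WT mouse 1), a range of -0.58 to 0.53, and 0 of 30 past the study's threshold (background 5.74%) or an adjusted p of 0.05 (0%). By limma, 1 had an unadjusted p under 0.05, Rps29, against 15.2% of tested probes. Rps28, a small protein beside the mRNA exit channel, was lowest, with 12.90, 12.52 and 12.43 in WT and 12.35, 12.31 and 11.46 in Het. These groups did not overlap, and the difference was -0.58 (SE 0.27, adjusted p = 0.335, exact permutation p = 0.1), or -0.29 without Het mouse 3 (adjusted p = 0.519). Rps29, a small zinc-binding protein of the head, had 13.23, 12.69 and 12.83 in WT and 12.71, 12.48 and 11.94 in Het, a difference of -0.54 (SE 0.24, adjusted p = 0.318). Here the groups overlapped and Het mouse 3 was the lowest, and the difference was -0.32 without it. At the top, Rps24, a body protein also mutated in Diamond-Blackfan anaemia, had 12.94, 11.21 and 12.57 in WT and 12.84, 12.94 and 12.53 in Het. The difference was 0.53 (SE 0.37, adjusted p = 0.473), and WT mouse 2 lay far below the other 5 mice. Without that mouse it was 0.015 (adjusted p = 0.992), and without WT mouse 1 it was 0.88. Rps6 had 11.80, 10.80 and 11.67 in WT and 11.96, 12.14 and 11.67 in Het, a difference of 0.50 (SE 0.27, adjusted p = 0.391), with WT mouse 2 again lowest, and 0.19 without it (adjusted p = 0.774). On polysomes 3 members had no overlap, against 21.8% of tested probes. Summed marker levels also differed between genotypes on polysomes without overlap, with fibroblast markers at 15.01 to 15.12 in WT and 14.40 to 14.66 in Het, blood markers at 14.36 to 15.42 and 13.34 to 13.79, and muscle markers at 19.81 to 19.86 and 19.93 to 19.98. Their part in the differences of the members was not tested.

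Loading is the polysome over whole muscle ratio of each mouse compared between genotypes. Its median over members was -0.09 in the direction Het minus WT, against 0.14 over all tested genes, with 13 members higher and 17 lower (8 lower with brightness as a term or within slide 1, 23 with 75th percentile scaling or within slide 2). No mouse had its polysome and whole-muscle arrays on the same slide. The within-slide values therefore compared group means of different mice, with a single array in some groups. None of the 30 passed the study's threshold, which 14% of tested probes did (6.78% of those as bright as the members), or an adjusted p of 0.05 (0%), and by limma 0 had an unadjusted p under 0.05 (16.9% of tested probes). The lowest adjusted p of a member was 0.314. The 95% intervals of the 30 differences all included 0 and reached from -1.52 to 1.65. Differences inside these intervals could not be told from 0 with 3 mice per genotype.

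**Figure D4:**
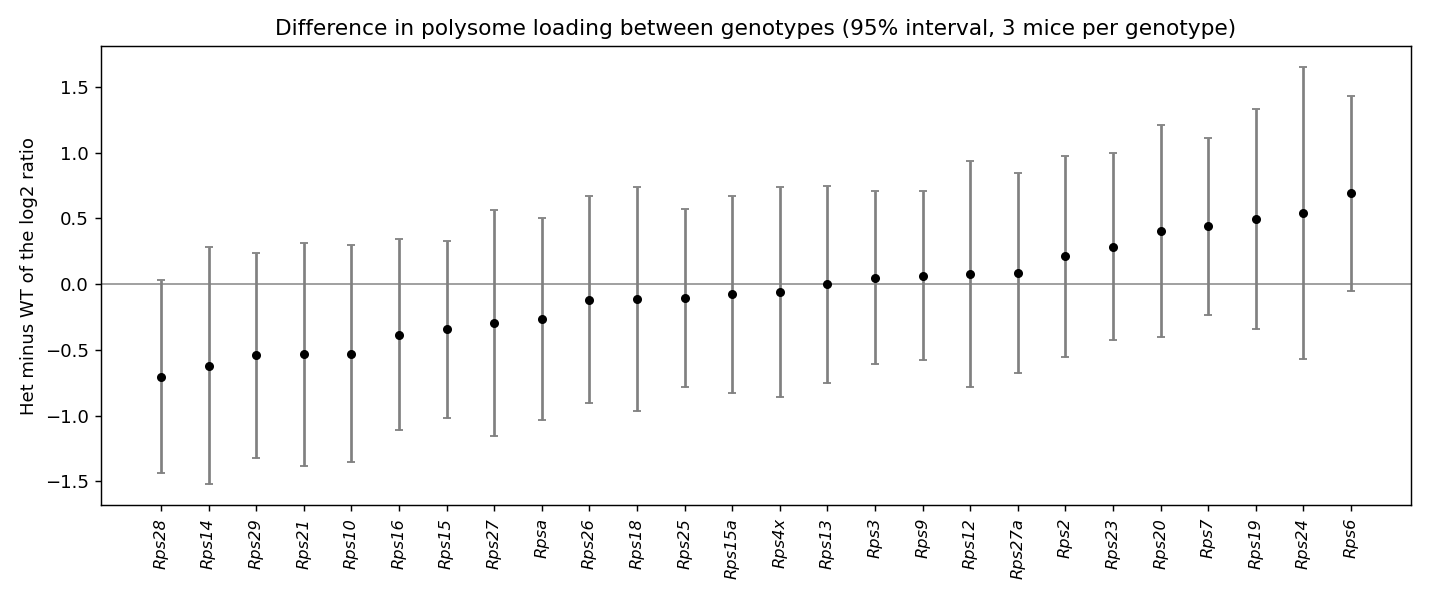
Het minus WT difference of the log2 polysome over whole muscle ratio (y axis) for 26 of the 30 genes (x axis), with the 95% interval of the limma fit, 3 mice per genotype. The estimates run from -0.70 (Rps28) to 0.69 (Rps6) and every interval shown includes 0.

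Rps28 had the lowest loading difference, with ratios of -0.15, -0.22 and -0.49 in WT and -0.73, -0.85 and -1.38 in Het. The genotypes did not overlap, and the difference was -0.70 (SE 0.31, 95% interval -1.44 to 0.03, adjusted p = 0.314, exact permutation p = 0.1). Rps14 came next at -0.62 (SE 0.38, adjusted p = 0.444), with -0.15, -0.10 and -1.19 in WT and -0.88, -1.29 and -1.13 in Het, so that WT mouse 3 lay among the Het mice, and it was -0.97 without that mouse. Its difference became 0.43 when array brightness was a term. Rps29 was at -0.54 (SE 0.33, adjusted p = 0.443), with -0.34, -0.71 and -0.60 in WT and -0.78, -0.91 and -1.58 in Het, without overlap, but it was -0.30 without Het mouse 3.

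Rps6 had the highest loading difference, 0.69 (SE 0.32, 95% interval -0.05 to 1.43, adjusted p = 0.327, exact permutation p = 0.1). Its WT ratios, given above, were all below its Het ratios, and it was 0.46 without WT mouse 2. Both of its other tested probes gave a positive difference too, 0.71 at base 381 and 1.03 at base 1274 (adjusted p = 0.249 and 0.253). The probe at base 1274 was dim, with a mean level of 7.07 against 12.13 for the chosen probe. It was well above background on 15 of the 16 arrays. For Rps24 the difference was 0.54 (SE 0.47, adjusted p = 0.573), with -0.57, -2.32 and -1.27 in WT and -0.75, -0.68 and -1.10 in Het, and it was 0.08 without WT mouse 2 and 0.95 without WT mouse 1. For Rps19 it was 0.50 (SE 0.36, adjusted p = 0.498), and it was 0.76 without WT mouse 2. In all, 7 members had no overlap between genotypes, 2 higher and 5 lower in Het, against 25.3% of tested probes. In 12 of the 20 genes with several tested probes, all probes had the same sign. When each gene was read at its probe nearest the 5′ end, 2 members passed the study's threshold, Rps18 at 1.16 (adjusted p = 0.198) and Rps2 at 1.06 (adjusted p = 0.240), and at the 3′ end 1 did, Rps6. Without WT mouse 2 they were 1.49 (adjusted p = 0.072) for Rps18 and 1.29 (adjusted p = 0.171) for Rps2, but 0.68 for Rps6, under the threshold of 1.

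Monosome RNA was set against polysome RNA in the 4 mice that had both arrays. The median over members was -1.03 in WT mouse 1, -1.07 in Het mouse 1 and -1.29 in Het mouse 3, with 28, 29 and 30 of 30 members below 0, but 0.65 in WT mouse 2, with 4 below 0. With all 4 mice the median was -0.67, 28 members were below 0 and 0 passed an adjusted p of 0.05, as did 0% of tested probes, while 11 had an unadjusted p under 0.05 by limma, as did 41.1% of tested probes, so that the share of members was no larger than the background. Without WT mouse 2 the median was -1.06, all 30 were below 0 and 17 passed the adjusted threshold, all lower on polysomes, where 10.1% of 21950 tested probes were. A single WT mouse then stands for its genotype and is taken to vary as the Het mice do. Marker lists moved with these fractions too. Without overlap in either genotype, muscle markers were lower in monosomes (19.15 to 19.61) than on polysomes (19.81 to 19.98), as were adipocyte markers (11.97 to 12.74 and 13.06 to 14.45) and, within each genotype, fibroblast markers (14.64 to 14.80 and 15.01 to 15.12 in WT, 13.78 to 14.25 and 14.40 to 14.66 in Het). Blood markers were higher in monosomes in Het and overlapped in WT, and immune markers were higher in WT and overlapped in Het. Their part in these ratios was not tested.

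**Figure D5:**
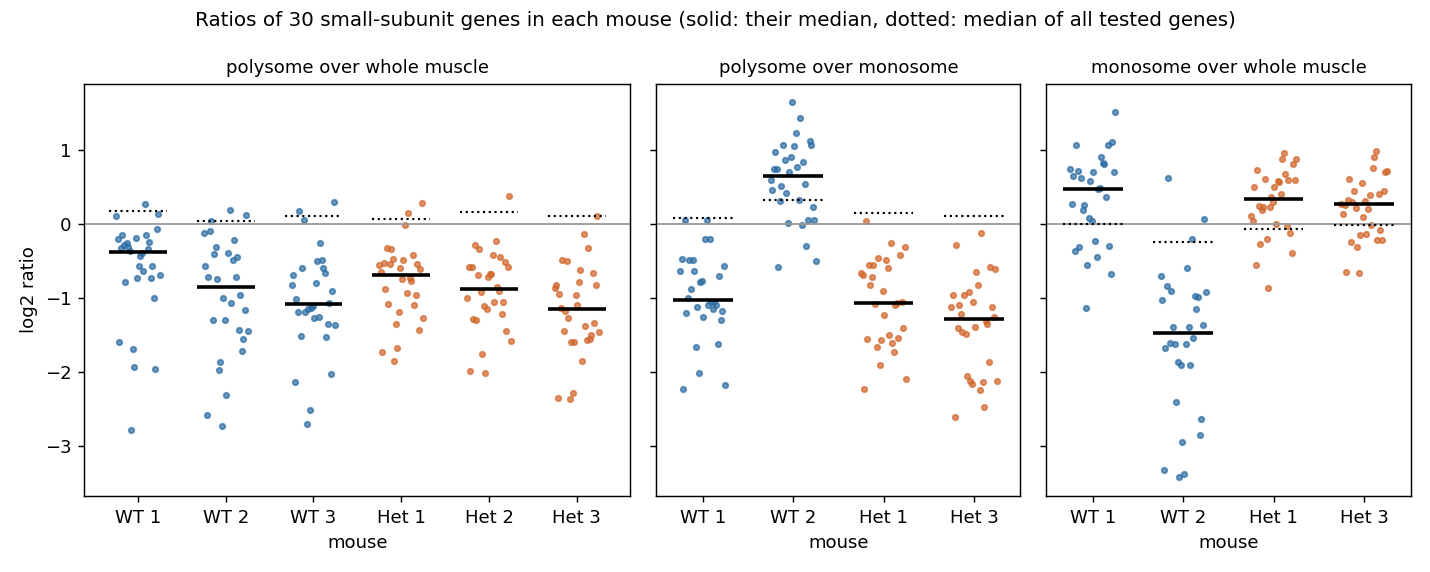
Log2 ratios (y axis) of the 30 genes (points) in each mouse (x axis) for polysome over whole muscle, polysome over monosome and monosome over whole muscle, with solid lines for the median of the 30 and dotted lines for the median of all tested genes. WT mouse 2 lies apart in both panels that use its monosome array, at 0.65 and -1.47 against -1.29 to -1.03 and 0.26 to 0.47 in the other mice.

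The members with the lowest polysome over monosome ratios were Rpsa, with -2.18 in WT mouse 1, -2.11 in Het mouse 1, -2.13 in Het mouse 3 and -0.50 in WT mouse 2, and Rps12, with -2.24, -2.24, -2.62 and 0.75. Rps13, a body protein, and Rps27a had the highest means. Rps13 had 0.05, 0.04, -0.29 and 0.97 and Rps27a -0.21, -0.26, -0.12 and 1.43 in the same order. These 4 genes shared their pattern across mice, in which WT mouse 2 alone stood above the others. The means of Rps13 and Rps27a over the 4 mice, 0.19 and 0.21, became -0.037 and -0.20 without WT mouse 2.

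Against whole muscle, the monosome level of the members was higher in 3 mice and lower in the other. The medians were 0.47 in WT mouse 1, 0.33 in Het mouse 1, 0.26 in Het mouse 3 and -1.47 in WT mouse 2, while all tested genes had medians of -0.24 to 0.0049. Over 4 mice the median of the means was -0.13, and without WT mouse 2 it was 0.38, with 22 of 30 members above 0. Rps28 and Rpsa were above 0 in 3 mice, with 0.90 and 1.51 in WT mouse 1, 0.88 and 0.88 in Het mouse 1 and 0.75 and 0.71 in Het mouse 3, but -0.21 and -0.92 in WT mouse 2. The Rpsa mean over the 4 mice was 0.54 and became -0.015 with 75th percentile scaling. Rps2 and Rps7 were below 0 in all 4 mice, with -0.56 and -0.68 in WT mouse 1, -0.87 and -0.39 in Het mouse 1, -0.66 and -0.22 in Het mouse 3 and -1.87 and -2.64 in WT mouse 2. Muscle markers were lower in monosomes than in whole muscle without overlap (19.15 to 19.61 and 19.74 to 20.14), and blood markers were higher in WT (14.24 to 15.68 and 13.32 to 13.97) and in Het (13.89 to 14.14 and 13.61 to 13.82). Fibroblast, immune and endothelial markers were higher in monosomes in WT and overlapped in Het, and adipocyte markers overlapped in both. Their part in the ratios was not tested.

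For most members the monosome difference between genotypes rested on 1 array. Rps26 differed from this pattern, with both WT arrays close together, at 11.63 ± 0.16 in WT and 12.57 ± 0.18 in Het (SD, n = 2 each). With 2 arrays per genotype, 29 of 30 members were higher in Het, with a median of 0.89, and 9 passed the study's threshold (all higher), where 28.6% of 20290 tested probes passed in either direction and 17.1% were higher. Rps24 was the highest at 1.83, with 13.94 and 9.86 in WT and 13.81 and 13.65 in Het, followed by Rps20 at 1.81, with 13.85 and 10.15 in WT and 13.88 and 13.74 in Het. In both genes WT mouse 1 lay next to the Het mice and WT mouse 2 far below. The lowest were Rps15 at -0.35, with 14.06 and 13.55 in WT and 13.38 and 13.52 in Het, and Rps9 at 0.18, with 13.32 and 12.28 in WT and 12.95 and 13.01 in Het. These 4 differences turned on the WT mouse left out. Without WT mouse 1 they were 3.86 for Rps24 and 3.66 for Rps20 (adjusted p = 0.00021 and 0.00019), -0.10 for Rps15 and 0.70 for Rps9, and without WT mouse 2 they were -0.21, -0.035, -0.60 and -0.34. At its 5′ probe Rps15 was at 0.17. Without WT mouse 2 the median was -0.14, with 19 members below 0, and 0 passed the study's threshold. Summed immune markers were higher in WT monosomes (12.39 to 12.42) than in Het monosomes (11.25 to 11.69), as were fibroblast (14.64 to 14.80 against 13.78 to 14.25), blood (14.24 to 15.68 against 13.89 to 14.14) and adipocyte markers (12.05 to 12.74 against 11.97 to 11.99), while endothelial markers overlapped and muscle markers were lower (19.15 to 19.30 against 19.55 to 19.61). Their part in the monosome difference was not tested.

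Proteins of the small subunit that carry other names behaved in various ways. Rps3a1 had polysome over whole muscle ratios of -1.36 in WT and -1.18 in Het (adjusted p = 0.017 and 0.042), and Gnb2l1 (Rack1), a scaffold on the head, -1.20 and -1.002 (adjusted p = 0.025 and 0.067). Fau, made as a fusion with a ubiquitin-like protein, had 0.03 and -0.19 (adjusted p = 0.922 and 0.598), close to Rps27a, the other fusion. Rps27l, a paralog of Rps27, had -0.32 and -1.03 (adjusted p = 0.368 and 0.050). Rps4l, a paralog of Rps4x with a dim probe, was higher on polysomes, at 1.34 in WT and 0.79 in Het (adjusted p = 0.037 and 0.186). None of the 5 had a loading difference past either threshold.

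Factors that assemble the small subunit were split in direction in WT. Of 38 tested, 19 were above and 19 below 0 in WT in the polysome over whole muscle ratio, with a median of -0.02, and 29 were above 0 in Het, with a median of 0.34. In loading 29 of 38 were higher in Het, with a median of 0.28 against 0.14 over all genes. The 4 factors with the largest changes past the study's threshold were large in comparisons that use monosomes. Pno1, which acts in the last cleavage of the 18S rRNA precursor, was 2.65 higher in Het monosomes (adjusted p = 0.112) and 1.07 higher in loading (adjusted p = 0.232), and the kinase Riok3 was 2.58 higher in Het monosomes (adjusted p = 0.116). The GTPase Bms1 was lower there, by -2.31 (adjusted p = 0.093), and Wdr36 differed by 2.30 between polysomes and monosomes over the 4 mice (adjusted p = 0.055). With all mice none of these values passed the adjusted threshold. Leaving out WT mouse 2 leaves a single WT mouse with a monosome array, so only effect sizes are given for monosomes. The monosome differences were then 0.32 for Pno1, 0.40 for Riok3 and -1.35 for Bms1, and Wdr36 differed by 2.08 between polysomes and monosomes. The Pno1 loading difference without that mouse was 0.71 (adjusted p = 0.254).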

How the data were processed

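RNA was hybridised to 16 single-colour Agilent mouse arrays, 1 per sample. Per the file headers, the authors scanned and extracted spot intensities with Agilent Feature Extraction 11.0.1.1. The deposited series table holds log2 values of the same arrays, quantile-normalized by the authors from a signal not given in the sources used here, and was used as an alternative. Here processed-signal intensities were log2-transformed, spots of a probe averaged and arrays quantile-normalized (12 arrays, or 16 where monosomes enter). Of 55681 probes, a probe was tested where all arrays of some group had it well above background, which left 19847 and 20290. No spot was saturated. The number of arrays limits the precision.

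Adjusted p-values, SEs and 95% intervals come from limma 3.58.1 in R 4.3.3 (lmFit and eBayes, Benjamini-Hochberg over all tested probes); exact permutation tests are two-sided. The series' design text has total, monosome and polysome RNA prepared from the muscle of each mouse, so samples of 1 genotype with the same number in their titles were taken as 1 mouse and ratios were formed within it. Monosome RNA of WT mouse 3 and Het mouse 2 was not analysed here. Same-mouse polysome and whole-muscle deviations correlated at 0.058 to 0.49. Numbers do not pair WT with Het mice. The study's threshold was read as an unadjusted p. Probes were given the array's gene names. Values per mouse are given for the 3 highest and lowest members in loading and in the WT ratio, the 2 highest and lowest in the other genotype comparisons, and members of known roles. The other members and genes printed were added for completeness. Some members enter all counts and medians but are not reported one by one here. The members, lists and tests were chosen with earlier results of these data known. Alternatives were 75th percentile scaling, normexp with an offset of 50, the log2 table, 2 filters, slide, brightness, blocks, single probes, the mean of a gene's probes, the t-test of the methods and leaving out each mouse; the outermost probes of a gene were added after seeing the data. Scripts were tested on simulated data.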

Additional observations from a re-analysis of the deposited data

Results flagged for a closer look

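WT mouse 2 lay apart from the other 3 mice in both ratios that use its monosome array. Its median over members was 0.65 for polysome over monosome, where the others had -1.29 to -1.03. It was -1.47 for monosome over whole muscle, where the others had 0.26 to 0.47. The gap to the nearest mouse took 0.868 and 0.892 of the whole range, above Dixon's 95% critical value for 4 values. Among single members 13 had WT mouse 2 past that value in each ratio. Chance alone gives such a gap in about 1 of 20 groups, and members of 1 array are not independent.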

How the results depend on the processing

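The direction of the polysome over whole muscle ratios held under the alternatives, with 28 to 30 of 30 members below 0 in both genotypes, but the number called did not. The cause of these shifts was not tested. The counts in this section carry no share over all tested probes under the same setting. They show how far the calls moved and do not set the members apart from other genes. In WT the 13 members past an adjusted p of 0.05 became 21 with normexp, 22 in the authors' log2 table, 6 with brightness as a term and 2 by the methods' t-test. In Het the 13 became 25 with 75th percentile scaling, 23 with normexp, 23 in the log2 table, 21 where probes had to be well above background on all arrays, 4 without a filter, 4 with slide and 0 with brightness as a term. The Het median of -0.86 became -1.31 with 75th percentile scaling, where 24 members passed the study's threshold, against 6 with brightness and 13 in the values reported.

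The loading median of -0.09 became 0.31 with brightness as a term, and the study's threshold was passed by 2 members at the probe nearest the 5′ end and 1 at the 3′ end. The whole-muscle median of 0.01 became 0.21 with 75th percentile scaling, 0.14 with brightness, -0.11 within slide 1 and 0.12 within slide 2. In polysome over monosome, no member passed the adjusted threshold in the values reported, but 5 did with 75th percentile scaling, 6 with normexp, 8 in the log2 table, 11 with the stricter filter, 19 with slide (which takes WT mouse 2 out of the estimate, as the only mouse with both arrays on different slides) and 8 with no replicate block. In monosomes the 9 members past the study's threshold became 15, 14, 1 and 0 with 75th percentile scaling, the log2 table, brightness and the t-test, and 3 with the replicate block across genotypes. With that block the medians were 0.01 in whole muscle, -0.05 on polysomes and 0.80 in monosomes. Without the pairing of a mouse's samples, 15 members were called in WT and 15 in Het.

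The number of members lower in Het ranged over all alternatives from 8 to 23 in loading, 8 to 22 on polysomes and 2 to 23 in whole muscle. Among the members described with their values per mouse, these changed sign. In whole muscle Rps14 was -0.16 within slide 1 and -0.18 with brightness, Rps10 -0.033 within slide 1 and -0.0027 in the log2 table, and Rps6 0.27 with brightness. In polysome over monosome Rps13 was -0.0014 with 75th percentile scaling and -0.22 with brightness. Rps14 loading was 0.43 with brightness, Rps15 in WT 0.050 with brightness, Rps27a in Het 0.19 with brightness, Rps9 -0.17 in WT and -0.30 in Het with 75th percentile scaling, and Rps3 0.018 in WT and 0.077 in Het at its 3′ probe. Leaving out 1 mouse at a time gave Rps27a -0.37 to 0.0060 in WT and -0.19 to 0.0059 in Het, and Rps15 -0.13 to 0.10 in WT. It gave medians of -0.22 to 0.06 in loading, -0.031 to 0.088 in whole muscle, -0.14 to 0.10 on polysomes, -1.004 to -0.58 in WT and -1.02 to -0.75 in Het. Members called by adjusted p numbered 5 to 11 in WT, 0 to 15 in Het and 0 to 17 in polysome over monosome (17 without WT mouse 2), and by the study's threshold 0 to 28 in monosomes (28 without WT mouse 1, 0 without WT mouse 2). The medians were -1.06 to -0.34 in polysome over monosome, -0.57 to 0.38 in monosome over whole muscle and -0.14 to 1.85 in monosomes.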
